A study of Mus musculus with 2 samples.

Results

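The subject here is a set of 31 secretory granule and exocytosis genes, out of 31053 genes in the count tables, followed through the hormone cells of mouse pancreatic islets. The members were chosen by gene symbol, as named components of dense-core granules and of the machinery that fuses them with the plasma membrane, and comprise 4 granins, 4 granule membrane and lumen proteins, 6 SNAREs, 5 synaptotagmins and calcium sensors, 7 Rabs and Rab effectors, and 5 priming and clamping factors. The islets came from C57BL/6J mice aged 13 weeks. One group, HFD, was fed a high-fat diet that the submitters describe as inducing prediabetes, and the other group is labelled CD, an abbreviation that the labels do not expand. Each group is 1 droplet single-cell library made with 10x Genomics 3' chemistry from hand-picked, enzymatically dispersed islets, and the number of mice behind each library and the length of feeding are not given in the sources used here. No transgene, gene deletion or drug is named for either group.

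Islet hormones are stored in dense-core granules, in which granins and other luminal proteins form the matrix around the hormone. On a rise in cytosolic calcium, granules that Rab proteins and their effectors have brought to the plasma membrane, and that priming factors have readied, fuse when a vesicle SNARE pairs with SNAREs of the target membrane, with synaptotagmins as calcium sensors. Insulin-producing β cells, glucagon-producing α cells, somatostatin-producing δ cells and pancreatic polypeptide-producing PP cells share this machinery and differ in the isoforms they use.

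The HFD library held 271527648 unique molecular identifiers (UMIs, 1 per captured transcript molecule) and the CD library 265836346. Barcodes were kept from 1500 UMIs and 500 genes upwards, with mitochondrially encoded transcripts making up no more than 15%. This left 12062 barcodes in HFD (median 17673 UMIs, median mitochondrial share 4.20%) and 9667 in CD (median 21895 UMIs, 2.76%). Of the barcode sequences, 26 were kept in both libraries, against 17.2 from chance. Cells were classed by the share of their UMIs on hormone genes, with the other hormones below their limits. The limits were 30% for Ins1 and Ins2 together (β), 10% for Gcg (α), 3% for Sst (δ) and 20% for Ppy (PP). This gave 7433 β, 2005 α, 662 δ and 535 PP cells in HFD, and 6515, 1272, 570 and 328 in CD. A further 143 HFD and 144 CD barcodes were over several limits and entered no class. All 10 β markers and all 8 α markers were detected in at least 10% of the cells of their class in both libraries, as were all 6 PP markers and 5 of 6 δ markers. These lists include the hormone genes that set the classes, and the cut does not separate the classes. At the same cut all 6 PP markers were also detected in α cells and 5 of them in β cells, in both libraries. In PP cells, 9 of 10 β markers were detected in HFD and 8 in CD. Each class also held RNA of the others. Insulin transcripts made up 4.21% of UMIs of δ cells in HFD and 4.42% in CD, and Ppy made up 3.18% of UMIs of α cells in HFD and 2.12% in CD. Summed markers of acinar cells were lower in HFD, with 9.61 to 132 counts per 1000000 UMIs (CPM) across the 4 classes in HFD and 34.4 to 209 in CD, and summed endothelial markers were higher, with 38 to 200.3 in HFD and 15.0 to 94.8 in CD. No acinar marker of the 9 was at 0 in any class of either library, and of the 9 endothelial markers Cldn5 was at 0 in PP cells of HFD and in α cells of CD. The part of these differences in the results below was not tested.

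The granin promoters are shown because 3 of the 4 granins carry the letters of a cyclic AMP response element close to their RefSeq start sites, and Chga and Scg2 had the most UMIs of all members. A promoter window of 250 bases before to 50 bases after the start site was found in RefSeq (GRCm38.p6) for 22 of the 31 genes. The element was searched as TGACGTNA on both strands, in which N is any base. It was present in the windows of 4 members (Chga, Chgb, Scg2 and Rab3a), and in 2.93% of the 32851 promoter windows of all genes. The last 120 bases before the start site are printed 5′ to 3′, with the element in capitals. It lies 44 to 37 bases before the RefSeq start site in Chga (chr12:102554821-102554940, plus strand), 72 to 65 in Chgb (chr2:132781522-132781641, plus strand) and 68 to 61 in Scg2 (chr1:79440027-79440146, minus strand). The gene spans given below are from GENCODE and start elsewhere, at 132781278 for Chgb and at 79440120 for Scg2. By those spans the Chgb stretch lies inside the gene and the Scg2 stretch partly so, and the elements of both lie inside. The match is of letters and is no measure of binding.
Chga: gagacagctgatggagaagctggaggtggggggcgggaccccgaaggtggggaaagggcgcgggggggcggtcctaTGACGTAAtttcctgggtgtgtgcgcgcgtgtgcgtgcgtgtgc
Chgb: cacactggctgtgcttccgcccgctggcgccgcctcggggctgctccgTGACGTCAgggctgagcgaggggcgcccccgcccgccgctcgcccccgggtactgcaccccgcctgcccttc
Scg2: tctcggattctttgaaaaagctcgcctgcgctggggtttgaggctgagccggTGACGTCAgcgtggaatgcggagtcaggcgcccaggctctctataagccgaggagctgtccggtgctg

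β cells differed from the other classes in the most members, with 8 higher and 2 lower. The most selective member was Sytl4, at 28.9-fold the mean of the other 3 classes. δ cells combined high Chgb and Rab3b with the priming factor Cadps below its level in barcodes that hold free RNA and no cell, α cells had the least Scg2 and Rab3b, and no member was called higher in PP cells. To compare classes, UMIs were summed per class and library, converted to CPM with TMM factors (scaled CPM), and each class was set against the mean of the other 3 with the quasi-likelihood test of edgeR, with library as a block. A gene was called at an adjusted p under 0.05 and at least a 2-fold difference. Of 30 members tested (Cplx1 had too few UMIs), 8 were called higher in β cells against 6.78% of all 8845 genes, and 2 lower against 4.86%. In α cells 1 was higher (background 2.89%) and 3 lower (3.64%), in δ cells 2 were higher (3.7%) and 2 lower (3.04%), and in PP cells 0 were higher (1.87%) and 1 lower (2.86%). In PP cells edgeR gave 6 members higher at an unadjusted p under 0.05, none of them 2-fold (Cadps came nearest at 1.94-fold), and DESeq2 also called 0 higher. In PP cells 1 member, Cadps, was called higher under 4 alternatives, namely free RNA subtracted as profiled in barcodes of 10 to 100 or of 100 to 500 UMIs, doublets removed, and other hormones under 0.25 of their limits. The median log2 difference of the members was 0.39 in β cells (0.09 for all genes), -0.11 in α cells (0.02), -0.24 in δ cells (-0.10) and 0.03 in PP cells (-0.02).

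These counts depend on the scale. Insulin transcripts were 62.2% of the UMIs of HFD β cells and 61.1% of those of CD β cells, so that total UMIs as the scale placed the median of all genes at -0.81 in β cells and 0.88 in δ cells. On that scale 1 member, Sytl4, was called higher in β cells and 8 were called lower, and in δ cells 10 were higher and 1 lower. Of all genes, 35.5% in β cells and 36.1% in δ cells were called in either direction on that scale. On the TMM scale these shares were 11.6% in β cells and 6.74% in δ cells. The class differences given for single members are therefore relative to the bulk of other transcripts in the class. In each contrast the p-value measures the spread among 8 sums from 2 libraries that also differ in diet.

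**Figure D1:**
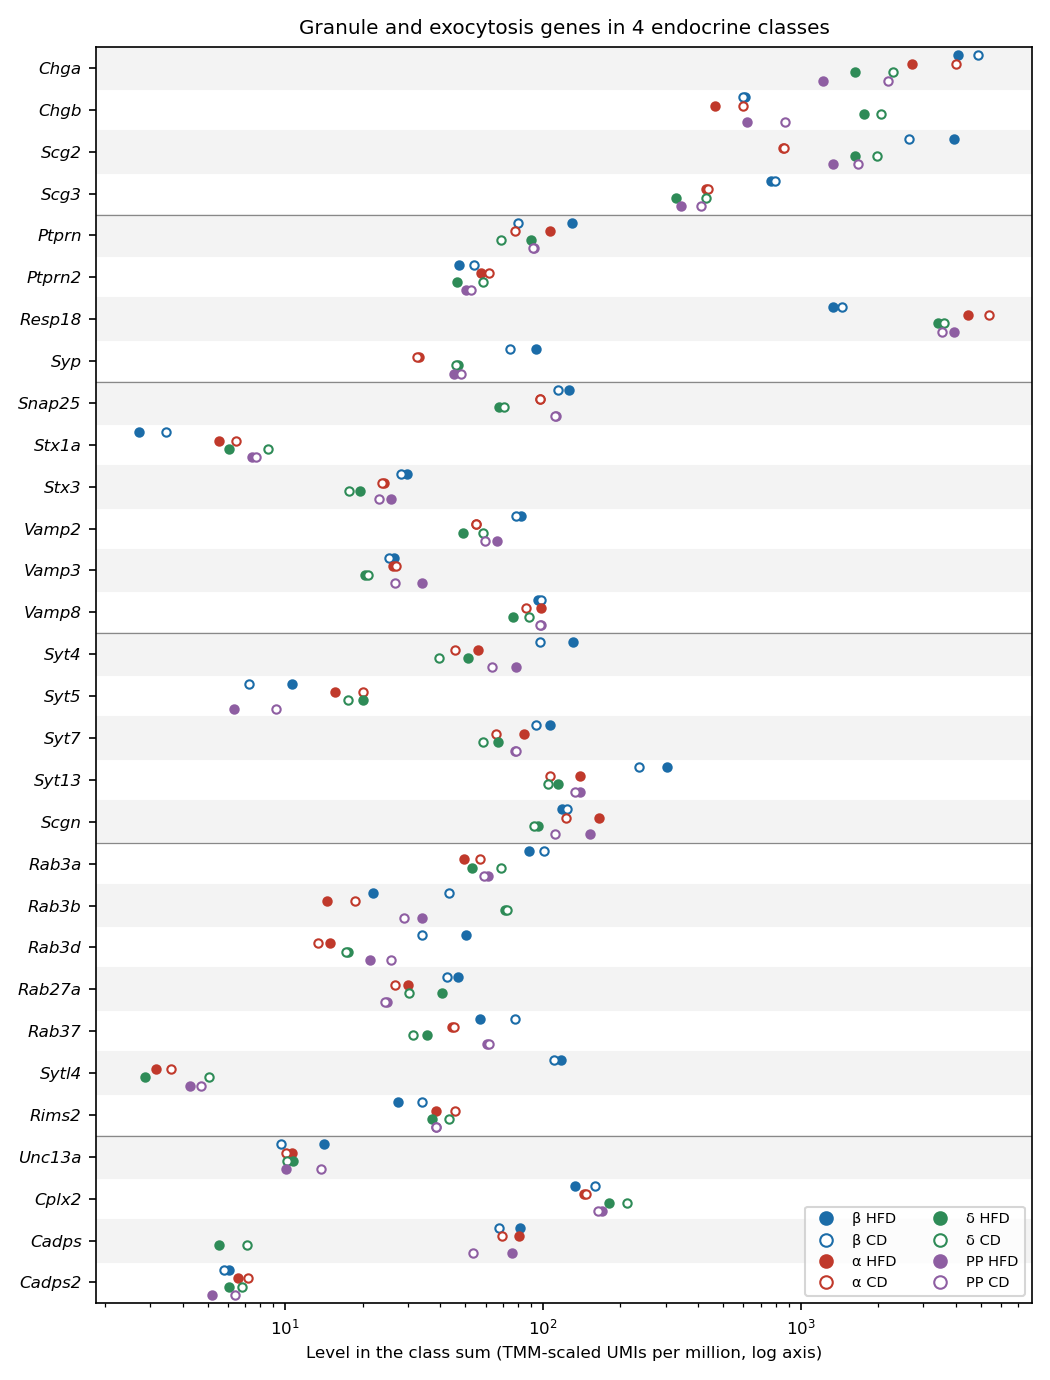
Level of 30 members (scaled CPM, log axis; Cplx1 is not drawn) in β, α, δ and PP cells, with 1 filled point for the HFD sum and 1 open point for the CD sum of a class. Sytl4 stands at 117 and 111 in β cells and below 6 in all other classes, and Cadps stands at 5.53 and 7.10 in δ cells and above 50 elsewhere.

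Among the granins, which form the granule matrix, Chga and Scg2 were highest in β cells on the TMM scale and Chgb in δ cells. As unscaled shares of a cell's UMIs, Chga was higher in α than in β cells and Scg2 higher in δ than in β cells, in both libraries. Chga (chromogranin A; chromosome 12, 102554969 to 102565028 in GRCm38) had 4069 scaled CPM in HFD and 4870.2 in CD in β cells. The other classes followed with 2709 (HFD) and 4010.2 (CD) in α cells, 1632 (HFD) and 2282 (CD) in δ cells, and 1219 (HFD) and 2179 (CD) in PP cells. The log2 difference of β cells from the other classes was 1.03 ± 0.11 (SE), adjusted p = 3.03e-06. In the CD library alone the difference was 0.84 and so under 2-fold, against 1.21 in the HFD library. PP cells had a log2 difference of -0.90 ± 0.12 (adjusted p = 1.75e-04), which also falls short of 2-fold. As a share of each cell's UMIs, with no scaling factor, the order was another, with α cells above β cells in both libraries. Median UMIs of Chga per 10000 UMIs of the cell were 22.9 in HFD and 29.9 in CD in β cells, 27.7 and 42.7 in α cells, 23.7 and 31.7 in δ cells, and 6.6 and 12.9 in PP cells, HFD before CD.

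Scg2 (secretogranin II, the precursor of secretoneurin; chromosome 1, 79434669 to 79440120) had 3938 scaled CPM in HFD and 2645 in CD in β cells. It had 1622 and 1981 in δ cells, 1341 and 1673 in PP cells, and 852 and 864 in α cells, in each case HFD before CD. β cells were called higher (log2 1.31 ± 0.14, adjusted p = 3.15e-06) and α cells lower (log2 -1.27 ± 0.16, adjusted p = 3.45e-05). The β difference was 1.68 in the HFD library and 0.90 in the CD library. Without a scaling factor, β cells had median shares of 23.1 UMIs per 10000 in HFD and 16.3 in CD, and δ cells 26.1 in HFD and 31.8 in CD. Empty barcodes, a measure of free RNA, had 1138 CPM of Scg2 in HFD, and α cells of that library held 0.83 times that level (1.06 times in CD). Every ratio to empty barcodes given here sets CPM of all UMIs against CPM of all UMIs, with no TMM factor, and so cannot be read off the scaled CPM. A ratio below 1 is not by itself a mark of absence. In β cells, for example, Vamp8 stood at 0.73 in HFD and 0.77 in CD, and Vamp2 at 0.78 and 0.93.

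Chgb (chromogranin B; chromosome 2, 132781278 to 132795079) had 1765 scaled CPM in HFD and 2048 in CD in δ cells. It had 608 and 597 in β cells, 466 and 599 in α cells, and 619.6 and 873 in PP cells, HFD before CD. The δ value in either library was above every value of the other classes (log2 1.62 ± 0.09, adjusted p = 3.76e-08), and this was the largest positive class difference of a granin. Per cell, δ cells had the highest median share, with 27.6 UMIs per 10000 in HFD and 32.4 in CD, against 3.1 in HFD and 3.5 in CD in β cells. Chgb in δ cells was 11.4 times the empty-barcode level in HFD and 10.6 times in CD. The fourth granin, Scg3, which binds chromogranin A and anchors it at the granule membrane, lay just under the limit in β cells, with 1.99-fold the mean of the other classes (log2 0.99 ± 0.08, adjusted p = 4.62e-07), at 769.6 scaled CPM in HFD and 799 in CD.

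**Figure D2:**
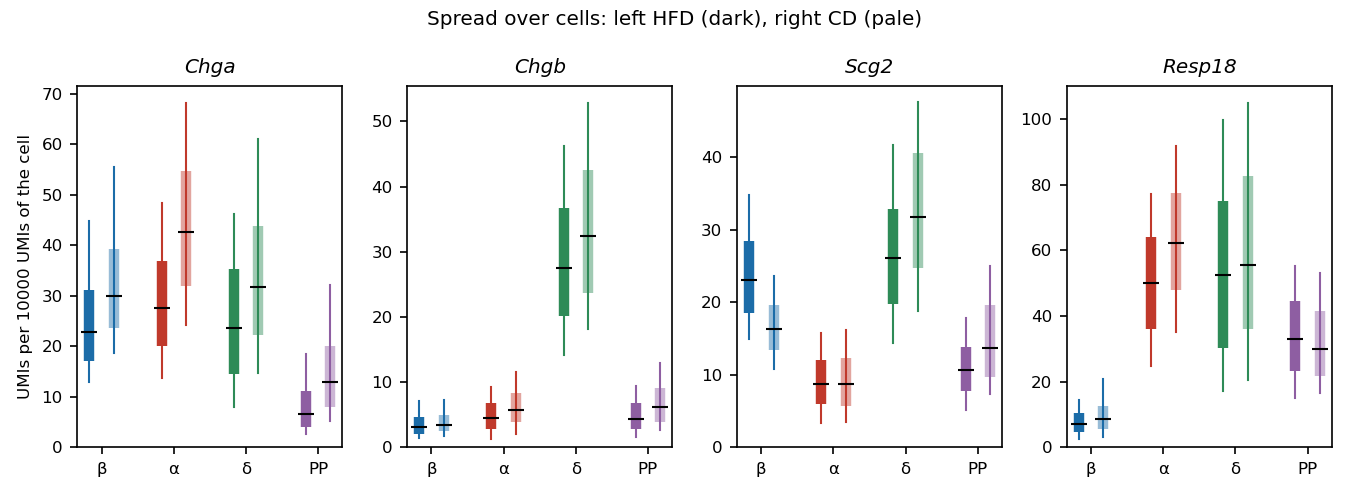
Spread over single cells of Chga, Chgb, Scg2 and Resp18 (UMIs per 10000 UMIs of the cell, no scaling factor) in each class, HFD (dark) left of CD (pale). Boxes run between the quartiles, lines between the 10th and 90th percentiles, and black bars mark medians. Chgb medians are 27.6 and 32.4 in δ cells and at most 6.1 in the other classes, and Resp18 medians are 7.3 and 8.6 in β cells and at least 30.1 elsewhere.

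Of the 4 granule membrane and lumen proteins, 2 were called, both in β cells, with Resp18 lower and Syp higher. Resp18 (a luminal protein of the endocrine secretory pathway, related to the luminal domain of Ptprn; chromosome 1, 75272199 to 75278415) was low in β cells, at 1333 scaled CPM in HFD and 1449.6 in CD. It had 4482 and 5413 in α cells, 3405 and 3590.0 in δ cells, and 3949 and 3537 in PP cells, HFD before CD. Both β values lay below all others, and β cells were called lower (log2 -1.53 ± 0.12, adjusted p = 1.53e-07). β cells held 0.46 times the Resp18 level of empty barcodes in HFD and 0.52 times in CD. Syp (synaptophysin, a membrane protein of synaptic-like microvesicles; chromosome X, 7638471 to 7653256) had 94.3 scaled CPM in HFD and 74.3 in CD in β cells, and between 32.6 and 48.2 elsewhere. β cells were called higher (log2 1.02 ± 0.08, adjusted p = 2.86e-07), with 1.18 in the HFD library and 0.83 in the CD library. Ptprn, a transmembrane granule protein and an autoantigen in autoimmune diabetes (chromosome 1, 75247027 to 75264502), passed in no class. It ranged over the 8 sums from 68.6 to 129.7 scaled CPM, the lowest in CD δ cells and the highest in HFD β cells. Its close relative Ptprn2 (phogrin) was at 46.2 to 61.6 scaled CPM, with no call.

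Of the 6 SNAREs, 1 was called. Stx1a (syntaxin 1A, a plasma membrane SNARE; chromosome 5, 135023482 to 135051100) was lower in β cells, with 2.70 scaled CPM in HFD and 3.44 in CD. It had 5.51 and 6.44 in α cells, 6.07 and 8.55 in δ cells, and 7.45 and 7.73 in PP cells, HFD before CD (log2 -1.18 ± 0.13, adjusted p = 6.38e-06). These are small counts, with 34 Stx1a UMIs in all HFD δ cells and 59 in all CD δ cells. After each cell was thinned to 1500 UMIs, 2.4% of δ cells in HFD and 2.8% in CD had a Stx1a UMI, against 1.8% of endothelial cells in HFD and 2.4% in CD, so its δ share is at the endothelial level. Snap25, the partner of syntaxin at the plasma membrane, had 126 scaled CPM in HFD and 115 in CD in β cells. Levels were 112.5 (HFD) and 111 (CD) in PP cells, 97.7 in both libraries in α cells, and 67.3 (HFD) and 70.6 (CD) in δ cells. δ cells had a log2 difference of -0.67 ± 0.08 (adjusted p = 4.25e-05), under 2-fold. Vamp8 (endobrevin, a vesicle SNARE) spanned 76.4 to 98.7 scaled CPM over the 8 sums and passed the test in no class. Of the remaining SNAREs, the vesicle protein Vamp2 spanned 49.1 to 82.6, the vesicle protein Vamp3 20.4 to 33.9 and the syntaxin Stx3 17.7 to 29.6 scaled CPM, none with a 2-fold class difference. Vamp3 shares its strand with the overlapping gene Camta1, so its count may include reads of that gene.

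Of the synaptotagmins and calcium sensors, Syt4 and Syt13 were higher in β cells, and neither was called in another class. Both belong to the synaptotagmins that do not bind calcium through the usual residues. Syt13 (chromosome 2, 92915098 to 92956058) had 303 scaled CPM in HFD and 236 in CD in β cells, and 104 to 139.5 in the 6 other sums (log2 1.13 ± 0.08, adjusted p = 5.89e-08). Syt4 had 131 scaled CPM in HFD and 97.2 in CD in β cells, and 39.6 to 78.8 in the 6 other sums (log2 1.05 ± 0.07, adjusted p = 3.47e-08). For both genes the lower β value, that of the CD library, exceeded every value of the other classes. Scgn (secretagogin, an EF-hand calcium sensor) was not called, at 119 scaled CPM in HFD and 124 in CD in β cells, 166 and 123 in α cells, 95.8 and 92.5 in δ cells, and 153 and 111 in PP cells, HFD before CD. Syt7, a high-affinity calcium sensor of granule fusion, spanned 58.6 to 106.8 scaled CPM and had a log2 difference of 0.48 ± 0.08 in β cells (adjusted p = 1.49e-04), under 2-fold. Syt5 was a low-level gene at 6.33 to 20 scaled CPM, with its higher values in α and δ cells.

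The Rabs and their effectors held the largest class difference of the 30 members tested. Sytl4 (granuphilin, a Rab27a effector that docks insulin granules; chromosome X, 133936385 to 133981812) had 117 scaled CPM in HFD and 111 in CD in β cells. It had 3.15 and 3.59 in α cells, 2.86 and 5.07 in δ cells, and 4.28 and 4.71 in PP cells, HFD before CD. The β sums thus stood far above all others (log2 4.85 ± 0.10, adjusted p = 1.27e-12). The calls of Sytl4 as lower in α (log2 -1.93 ± 0.17), δ (-1.56 ± 0.20) and PP cells (-1.36 ± 0.20) restate that β excess, since β cells are part of the mean that each was set against. In those 3 classes Sytl4 stood at 0.06 to 0.18 times the level of empty barcodes. Thinned to 1500 UMIs, 9.78% of β cells in HFD and 10.2% in CD had a Sytl4 UMI, against 0.6% of α cells in HFD and 0.8% in CD and 1.2% of endothelial cells in HFD and 0.6% in CD. The α share is at the endothelial background. Without thinning, the β shares were 74.8% in HFD and 75.9% in CD.

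Rab3b (a granule GTPase of the Rab3 family; chromosome 4, 108879063 to 108943324) was highest in δ cells, at 71.2 scaled CPM in HFD and 72.6 in CD. It had 22.0 and 43.2 in β cells, 34.1 and 29.0 in PP cells, and 14.5 and 18.7 in α cells, HFD before CD. It was called higher in δ cells (log2 1.5 ± 0.17, adjusted p = 1.81e-05) and lower in α cells (log2 -1.34 ± 0.19, adjusted p = 9.60e-05). In δ cells it was 10.1 times the empty-barcode level in HFD and 7.32 times in CD. Rab3d (chromosome 9, 21907491 to 21918192) was higher in β cells, with 50.5 scaled CPM in HFD and 33.9 in CD against 13.4 to 25.6 in the other sums (log2 1.21 ± 0.11, adjusted p = 1.18e-06). Its β difference was 1.48 in the HFD library and 0.89 in the CD library. Rab3a had 88.6 scaled CPM in HFD and 101 in CD in β cells and 49.5 to 68.9 elsewhere, a log2 difference of 0.71 ± 0.08 (adjusted p = 5.96e-06) that is under 2-fold. The other 3 were not called. They are Rab27a, the granule GTPase that binds granuphilin (24.3 to 46.9 scaled CPM), Rab37 (31.3 to 77.7) and Rims2, a Rab3-binding scaffold of release sites (27.5 to 45.4).

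Among priming and clamping factors, Cadps was nearly missing from δ cells, where it stood below its level in empty barcodes. Cadps (CAPS, which primes dense-core granules for fusion; chromosome 14, 12372563 to 12823079) had 5.53 scaled CPM in HFD and 7.10 in CD in δ cells. It had 81.9 and 67.4 in β cells, 80.4 and 69.2 in α cells, and 75.6 and 53.3 in PP cells, HFD before CD. The δ sums rest on 31 UMIs in HFD and 49 in CD, and were 0.09 times the mean of the other classes (log2 -3.46 ± 0.15, adjusted p = 3.14e-09). The calls as higher in β cells (2.37-fold) and α cells (2.39-fold) follow from a mean that includes δ cells. The δ level was 0.28 times that of empty barcodes in HFD and 0.34 times in CD. After thinning, 0.76% of δ cells in HFD and 1.4% in CD had a Cadps UMI, against 0.4% of endothelial cells in HFD and 0.3% in CD, and against 11.8% of α cells in HFD and 11.6% in CD. Without thinning the δ shares were 3.17% in HFD and 6.67% in CD. Its paralog Cadps2 was low in every class, at 5.22 to 7.19 scaled CPM, with no class difference that passed the test, and overlaps Rnf133 and Rnf148 on the same strand.

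Cplx2 (complexin, which clamps and assists SNARE complexes; chromosome 13, 54371349 to 54383917) had 134 scaled CPM in HFD and 159.8 in CD in β cells and 181 in HFD and 211 in CD in δ cells. The δ difference was log2 0.36 ± 0.08 (adjusted p = 4.49e-03), under 2-fold. The log2 difference was -0.20 ± 0.08 in β cells, -0.21 ± 0.08 in α cells and 0.05 ± 0.08 in PP cells, with no call. Its paralog Cplx1 had 2 UMIs in β cells of HFD, 2 in β cells of CD and 2 in α cells of HFD, and 0 in the other sums. A count of 0 allows up to 0.54 scaled CPM in HFD δ cells and 0.43 in CD δ cells, counting error only. Unc13a (Munc13, a priming factor) spanned 9.63 to 14.1 scaled CPM, with no call.

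**Figure D3:**
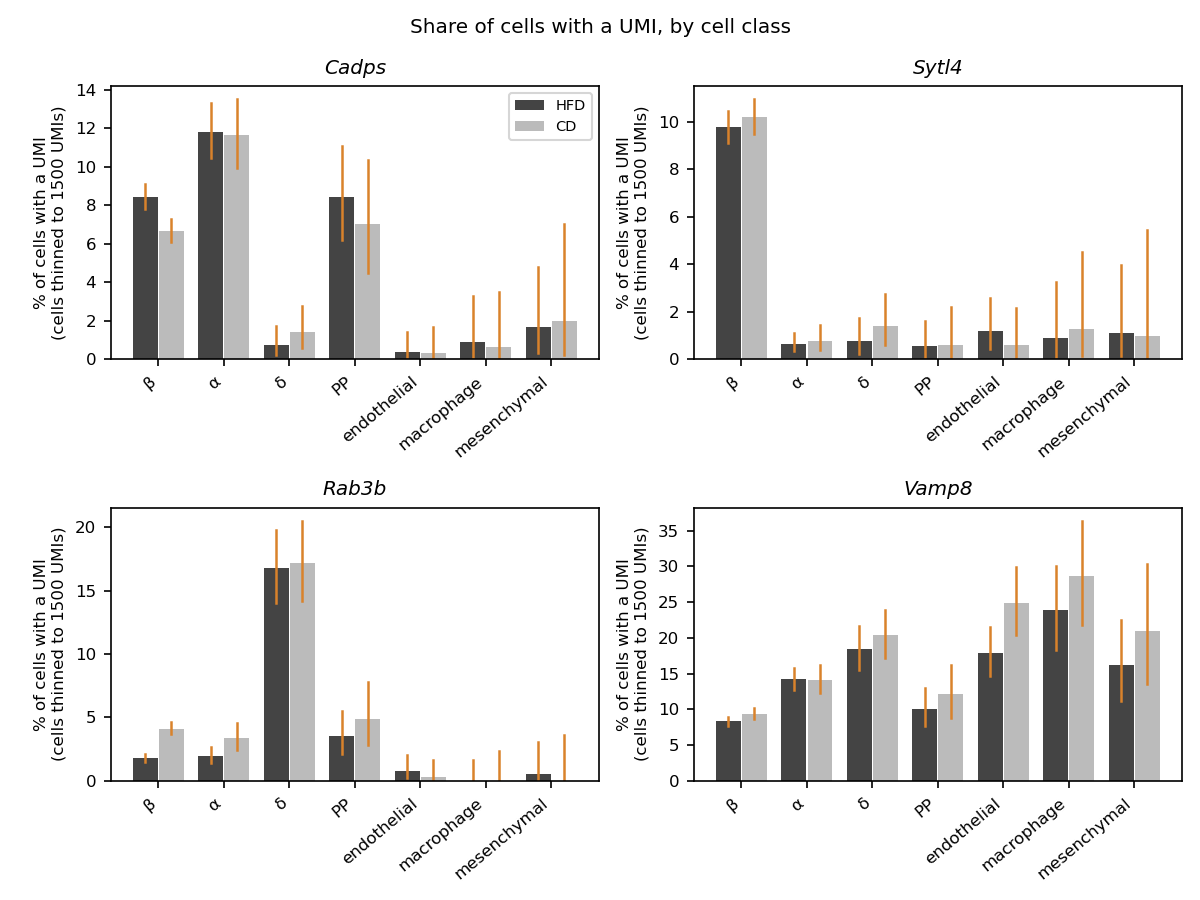
Share of cells with at least 1 UMI of Cadps, Sytl4, Rab3b and Vamp8 after each cell was thinned to 1500 UMIs (percent of cells, exact 95% binomial intervals for counting error only), in 4 hormone cell classes and 3 non-endocrine classes, HFD (dark) left of CD (pale). Cadps in δ cells (0.76% and 1.4%) and Sytl4 in α cells (0.6% and 0.8%) lie within the intervals of the endothelial shares, and Vamp8 is seen in 23.9% and 28.7% of macrophages against at most 20.4% of a hormone cell class. The 1500 UMIs include hormone transcripts, whose share differs between classes.

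Non-endocrine cells of the same libraries mark which members belong to the hormone cells. They were named from marker genes, with the cut set after seeing the data, as 502 endothelial, 218 macrophage and 179 mesenchymal cells in HFD and 329, 157 and 100 in CD. Vamp3 was seen in 18.5% of thinned endothelial cells in HFD and 17.9% in CD, against at most 5.0% in any hormone class. Vamp8 was seen in 23.9% of macrophages in HFD and 28.7% in CD, against 8.3% to 18.4% of a hormone class in HFD and 9.4% to 20.4% in CD, the highest in δ cells. Rab3a was seen in 18.4% of mesenchymal cells in HFD and 25% in CD, against 7.1% to 12.7% of a hormone class in HFD and 7.6% to 16.7% in CD, again the highest in δ cells. The thinned UMIs include hormone transcripts, whose share differs between classes. In HFD, insulin transcripts were 62.2% of UMIs in β cells and 6.64% in mesenchymal cells, Ppy 45.7% in PP cells and Sst 10.7% in δ cells. In scaled CPM, Rab3a was highest in β cells and Vamp8 passed the test in no class. The granins were also seen there, with Chga in 29.3% of endothelial cells in HFD and 27.7% in CD, against 94.8% and 97.9% of β cells. The share of granins in these cells is the background for every share of granins given here. Endothelial cells had median depths of 4387 UMIs in HFD and 4523 in CD, and β cells 24050.0 in HFD and 26671 in CD.

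The comparison of the diets asks how HFD and CD differ within each class. With 1 library per group it has no replicate check and no test, so each value describes these libraries, and each interval covers counting error only. In β cells 1 of 30 members with at least 100 UMIs was at least 1.5-fold higher in HFD, against 7.81% of 13058 genes, and 1 was at least 1.5-fold lower, against 4.46%. In PP cells 0 of 26 were higher (background 3.71%) and 1 was lower (2.4%). In α cells 0 of 30 were past 1.5-fold either way (backgrounds 5.39% higher and 2.29% lower), and likewise 0 of 26 in δ cells (3.63% and 4.89%). These shares are near or below the backgrounds. The median log2 ratio of HFD to CD was 0.07 for the members in β cells (all genes 0.01), -0.02 in α cells (0.02), -0.03 in δ cells (-0.07) and 0.02 in PP cells (-0.01). Ratios above 1 were seen for 18 of 30 members in β cells, 12 of 30 in α cells, 12 of 26 in δ cells and 15 of 26 in PP cells. Of all genes, 51.9% in β cells, 52.9% in α cells, 42.0% in δ cells and 49.2% in PP cells had ratios above 1. With total UMIs as the scale the members above 1 became 15 in β cells and 8 in PP cells, with 12 in α cells and 13 in δ cells. On that scale the shares of all genes were 43.6% in β cells, 37.3% in PP cells, 50.1% in α cells and 45.3% in δ cells.

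**Figure D4:**
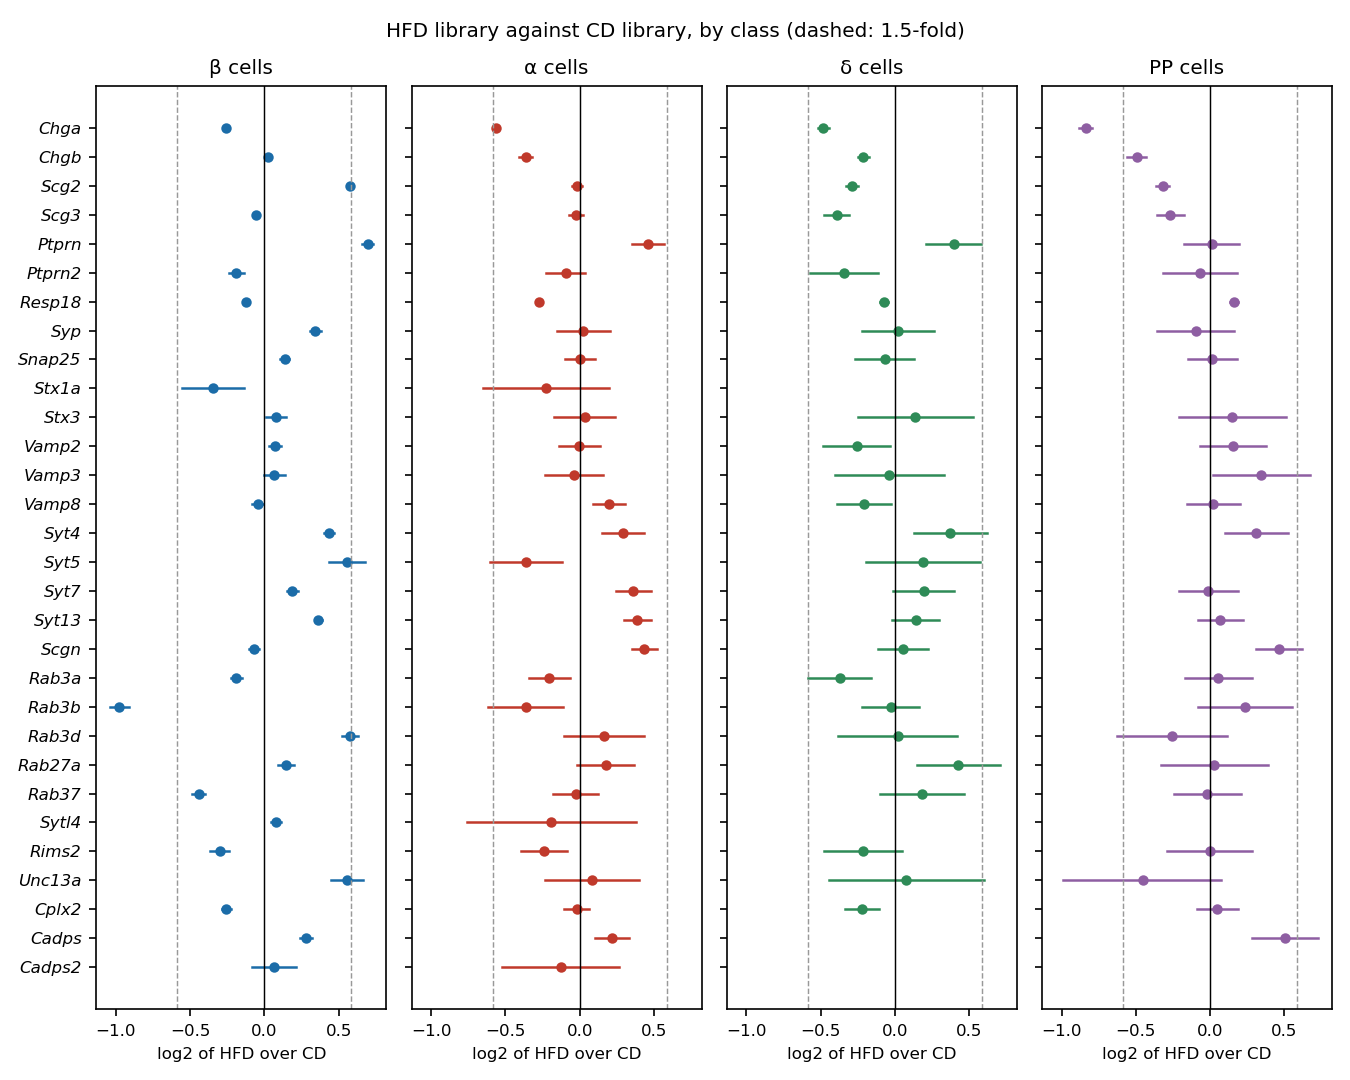
Log2 ratio of the HFD sum to the CD sum of each member with at least 100 UMIs in β, α, δ and PP cells, with exact 95% intervals for counting error only and dashed lines at 1.5-fold. Chga lies below 0 in all 4 classes, and in β cells Ptprn (0.70) and Rab3b (-0.98) are the members past 1.5-fold.

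Chga was lower in HFD in every class, at 0.84 times the CD level in β cells, 0.68 in α cells, 0.72 in δ cells and 0.56 in PP cells. Its log2 ratios were -0.26 (95% interval -0.26 to -0.25), -0.57 (-0.58 to -0.55), -0.48 (-0.52 to -0.45) and -0.84 (-0.88 to -0.79). Empty barcodes also had less Chga in HFD, at 1756 CPM against 2283 in CD. In PP cells Chga stood at 0.58 times the empty-barcode level in HFD and 0.85 times in CD. Over 12 alternative treatments of the data the PP log2 ratio ranged from -1.35 to -0.81, and the ratio kept its sign in all 4 classes. The estimated share of free RNA differed between libraries and profiles. As profiled in barcodes of 10 to 100 UMIs, it was 30.3% in HFD and 17.1% in CD for PP cells. For δ cells it was 17.9% in HFD and 25.1% in CD. As profiled in barcodes of 100 to 500 UMIs, it was 10.0% in HFD and 2.93% in CD for PP cells. For δ cells it was then 27.6% in HFD and 4.26% in CD. Beyond subtraction among the alternatives, the part of these shares in the ratios was not tested. Chgb, like Chga, was lower in HFD outside β cells. Its log2 ratios were -0.36 in α cells, -0.21 in δ cells and -0.49 in PP cells, and 0.02 in β cells.

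Scg2 differed in direction between classes, with a log2 ratio of 0.57 (0.57 to 0.58) in β cells, or 1.49-fold, -0.02 (-0.05 to 0.01) in α cells, -0.29 (-0.33 to -0.25) in δ cells and -0.32 (-0.36 to -0.27) in PP cells. The single-cell medians of β cells given above had the same order. Resp18 had ratios of -0.12 in β cells, -0.27 in α cells, -0.08 in δ cells and 0.16 in PP cells, and Scg3 ranged from -0.39 to -0.03.

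Ptprn was 1.62-fold higher in β cells of HFD, with 129.7 scaled CPM in HFD and 80.1 in CD (log2 0.70, 0.66 to 0.73). The ratio was 0.46 (0.35 to 0.57) in α cells, 0.39 (0.21 to 0.58) in δ cells and 0.01 (-0.17 to 0.19) in PP cells. Empty barcodes had 72.6 CPM of Ptprn in HFD and 46.7 in CD. After thinning, 11.5% of β cells in HFD and 8.1% in CD had a Ptprn UMI, and 79.8% in HFD and 70.1% in CD without thinning. Ptprn2 differed the other way, with log2 ratios of -0.34 to -0.07 in the 4 classes.

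Rab3b in β cells of HFD was 0.51 times the CD level (log2 -0.98, -1.04 to -0.91), from 2673 UMIs in HFD and 5627 in CD. In β cells, 1.78% in HFD and 4.13% in CD had a Rab3b UMI after thinning, and 28.3% in HFD and 50.02% in CD without. Outside β cells the log2 ratio was -0.36 (-0.61 to -0.11) in α cells, -0.03 (-0.22 to 0.16) in δ cells and 0.23 (-0.08 to 0.55) in PP cells. Its relative Rab3d went in the opposite direction in β cells, with a log2 ratio of 0.58 (0.52 to 0.63), which is 1.49-fold, and Rab3a had -0.19 (-0.23 to -0.15) there.

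Below 1.5-fold, Syt4 was higher in HFD in all 4 classes, with log2 ratios of 0.43 (0.40 to 0.47) in β cells, 0.29 in α cells, 0.37 in δ cells and 0.31 in PP cells. Syt13 had 0.36 in β cells and 0.39 in α cells, 0.14 (-0.02 to 0.29) in δ cells and 0.07 (-0.08 to 0.22) in PP cells. Scgn had 0.44 (0.35 to 0.52) in α cells and 0.46 (0.31 to 0.62) in PP cells, and -0.07 in β cells and 0.05 in δ cells. Syt5 and Unc13a were each 1.47-fold in β cells, and Syp had a log2 ratio of 0.34 (0.30 to 0.38) there. Rab37 had -0.44 (-0.49 to -0.40) and Cplx2 -0.26 (-0.29 to -0.23) in β cells. Cadps had ratios of 0.28 in β cells, 0.22 in α cells and 0.50 (0.28 to 0.73) in PP cells. Sytl4 was at 0.08 (0.05 to 0.11) in β cells. Among the SNAREs, Snap25 lay between -0.07 and 0.13, Vamp2 between -0.26 and 0.15 and Vamp8 between -0.21 and 0.20 in the 4 classes. Stx1a had -0.35 (-0.56 to -0.14) in β cells and -0.23 (-0.65 to 0.20) in α cells, and, with fewer than 100 UMIs in both libraries together, -0.49 (-1.15 to 0.14) in δ cells and -0.05 (-0.72 to 0.61) in PP cells. In β cells Rab27a had 0.14, Syt7 0.19, Stx3 0.08, Vamp3 0.07, Cadps2 0.06 and Rims2 -0.30. Outside β cells Rab27a had 0.43 (0.15 to 0.70) in δ cells, 0.18 in α cells and 0.03 in PP cells. For Syt7 the ratio was 0.36 (0.24 to 0.48) in α cells, 0.19 in δ cells and -0.01 in PP cells. For Vamp3 it was 0.34 (0.02 to 0.67) in PP cells and -0.04 in α and in δ cells. The mitochondrial share of class medians was higher in HFD in all 4 classes (3.38% to 5.40%, against 1.97% to 3.23% in CD), and its part in these ratios was not tested.

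Of 93 other exocytosis genes, 65 were tested between classes. The backgrounds are those given above for the members. In β cells 8 were higher and 9 lower, in α cells 5 and 3, in δ cells 5 and 4, and in PP cells 3 and 3. The neuropeptide precursor Nucb2 was higher in β cells, as were Exph5 and Sytl1 (Rab27 effectors), Rims3 (a Rab3-effector relative) and Erc2 and Pclo (active zone proteins). In the CD library alone Nucb2 (log2 0.67, HFD 1.52) and Sytl1 (0.84, HFD 1.11) were under 2-fold. In the HFD library alone Exph5 was under 2-fold (0.94, CD 1.02). Vgf, a granin-like peptide precursor, was higher in α cells (log2 3.10 ± 0.35) and called higher in β cells (1.07 ± 0.38, adjusted p = 0.0273), although in β cells the difference was 1.45 in the HFD library and 0.04 in the CD library. Vgf had 13.3 scaled CPM in HFD and 16.1 in CD in α cells, 8.1 in HFD and 3.0 in CD in β cells, and at most 1.7 elsewhere. Rims3 had 40.6 scaled CPM in HFD and 49.2 in CD in β cells, and 2.1 to 5.2 in the other sums (log2 3.88 ± 0.13). Pclo had 163.7 in HFD and 194 in CD in β cells (log2 2.12 ± 0.09).

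Genes lower in β cells were Stxbp5l, Syt1, Syt16, Syt9, Rab3c, Sytl2, Sytl5, Ppfia2 and Exoc6. The classical calcium sensor Syt1 was a δ gene, at 60.9 scaled CPM in HFD and 58.4 in CD in δ cells against 1.9 to 5.3 in the other sums (log2 4.19 ± 0.14). Stxbp5l (a tomosyn, which binds syntaxin), Baiap3, Erc2 and Ppfia2 were also higher in δ cells, and Vgf, Rab3c, Rims3 and Sytl2 were lower there. Those lower δ calls rest on few UMIs, with 5 in HFD and 4 in CD for Vgf, 14 and 23 for Rab3c, 14 and 24 for Rims3, and 6 and 0 for Sytl2. As with Sytl4, they restate the excess of other classes, which are part of the mean and carried these genes past the filter. So do the lower calls of Rab3c and Sytl2 in β cells, Rims3 in α cells and Syt1 in PP cells. In the CD library alone, Baiap3 (log2 0.76, HFD 1.48) and Rims3 (-0.92, HFD -1.57) in δ cells were under 2-fold. The same held for Syt9 in β cells (-0.81, HFD -1.17). The relative of Rab3b named Rab3c divided the classes differently, with 32.7 scaled CPM in HFD and 36.0 in CD in α cells, 28.7 in HFD and 29.6 in CD in PP cells, and at most 3.3 in β and δ cells. Sytl2, a Rab27 effector related to Sytl4, likewise had 14.1 in HFD and 8.7 in CD in α cells and 15.6 in HFD and 12.1 in CD in PP cells, against at most 1.1 in the other 2 classes. Rab3c and Sytl2 were called higher in both α and PP cells, with Pcsk1n, Vgf and Syt16 also higher in α cells and Exoc6 in PP cells. Rims3, Erc2 and Pclo were lower in α cells, and Syt1, Baiap3 and Erc2 were lower in PP cells. Pcsk1n (proSAAS, an inhibitor of a prohormone convertase) had 4291 scaled CPM in HFD and 5670.1 in CD in α cells and 1947 in HFD and 1967 in CD in β cells. Scg5 (7B2, a convertase chaperone) passed the test in α cells at under 2-fold (log2 0.64 ± 0.09). The remaining abundant genes of the lists, Napa, Exoc5, Exoc7, Rab2a, Rab11a, Sec22b, Stx7, Ppfia1, Syt14 and Syt11, were not called in any class.

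Between HFD and CD, 5 of 79 other exocytosis genes were past 1.5-fold higher in β cells and 4 lower (backgrounds as above). The higher ones were Vgf (log2 1.44, 1.27 to 1.61), Nucb2 (0.99, 0.96 to 1.03), Syt3 (0.79, 0.60 to 0.98), Myrip (0.68, 0.34 to 1.04) and Rimbp2 (0.65, 0.60 to 0.69). The lower ones were Cplx3 (-2.29, -2.92 to -1.71, from 29 UMIs in HFD and 152 in CD), Doc2b (-1.33, -1.76 to -0.92), Exoc7 (-0.87, -0.94 to -0.81) and Syt16 (-0.85, -1.12 to -0.60). Exoc7, an exocyst subunit, was lower in HFD in the other classes too, with -0.44 (-0.67 to -0.21) in α cells, -0.38 (-0.71 to -0.06) in δ cells and -0.63 (-1.05 to -0.21) in PP cells. In α cells 4 of 65 genes were past 1.5-fold higher, Vamp5 (0.99), Bsn (0.92), Syt9 (0.76) and Sytl2 (0.69), and 0 lower. In δ cells 3 of 56 genes were past 1.5-fold higher, Baiap3 (0.89) and Rph3al (0.78) among them, and 2 lower. In PP cells 2 of 52 were higher, with Stxbp5l (0.75) the farther from 1, and 1 lower.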

How the data were processed

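The deposited matrices hold raw UMI counts per gene and barcode. Cell Ranger 6.0.1 and mm10 are named in the submitters' processing notes, but version 3.0.2 stands in the matrix headers. Barcodes are unfiltered, and no source used here names the annotation release. Positions came from GENCODE M21 on GRCm38, the build of mm10, in which 99.6% of the gene identifiers were found.

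From these counts, cells were kept and classed as described in the report, without doublet removal beyond the hormone limits. The UMIs of each class were added up by library, and TMM factors were computed over the 8 sums. Class differences were tested with edgeR 4.0.16 in R 4.3.3 (quasi-likelihood, library as a block, Benjamini-Hochberg adjustment over genes with a mean of at least 5 CPM). HFD over CD ratios have exact conditional binomial 95% intervals and shares of cells exact Clopper-Pearson intervals, both for counting error only, as PCR and capture are not modelled. Free RNA was profiled in barcodes with 10 to 100 UMIs. Cells with no hormone over its limit were named non-endocrine by the marker list with the highest share, if at least 1% of UMIs. Alternatives covered scaling, filters, DESeq2 1.42.0, doublets scored in scanpy 1.11.5 and free RNA.

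Members that met a rule were given by value, and the others by range. The rule was a class call or a ratio of at least 1.5-fold whose interval bound nearest 1 is past 1.25-fold. It was also met by the highest or next highest UMI count of a role group. Class levels of Ptprn and Vamp8, and those outside β cells of Syp, Syt4, Syt13, Rab3a and Rab3d, were still given by range. Levels of Cplx2 were given for β and δ cells only. The same rule named other exocytosis genes, of which 1 is not reported here. The members and lists were chosen with earlier results of these data known. The labels give both libraries the replicate number 1 and nothing says how many animals each held, so p-values measure only the spread between sums.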

Additional observations from a re-analysis of the deposited data

Results flagged for a closer look

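Syt5, a synaptotagmin of low level in all classes, differed in opposite directions between classes. Its log2 ratio of HFD to CD was 0.56 (95% interval 0.43 to 0.68) in β cells and -0.36 (-0.60 to -0.12) in α cells, and both intervals, which cover counting error only, lay clear of 0. With 1 library per group the difference between the classes was not tested. Over the alternatives the ratio ranged from 0.35 to 0.66 in β cells and from -0.47 to -0.34 in α cells.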

How the results depend on the processing

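No paired analysis was possible because HFD and CD have 1 library each and share 1 replicate number. For the class calls, total UMIs as the scale brought the members called in either direction to 11 in δ cells (main 4). In PP cells the count went to 3 (main 1). Over all genes the share called went to 36.1% in δ cells (main 6.74%) and 6.52% in PP cells (main 4.73%). PP cells had 2 members after subtraction of free RNA as profiled in the emptiest barcodes (10 to 100 UMIs), against 6.43% of all genes. They had 3 with doublets removed (5.21% of all genes) and 4 with other hormones under 0.25 of their limits (6.29%). Of 266 values of single called members under the alternatives, 244 kept their call and direction and 22 kept the direction only, 5 of these in the CD library without the HFD library. With total UMIs Chga (log2 0.13), Syp (0.12) and Syt4 (0.15) no longer passed in β cells, and with size factors of DESeq2 they fell just under 2-fold (0.96, 0.94 and 0.98). With total UMIs Scg2 had 0.41, Rab3d 0.31, Syt13 0.23 and Cadps 0.35 in β cells. Sytl4 as lower in α, δ and PP cells lost its call after the same subtraction, which leaves it with almost no UMIs there, and in δ and PP cells also with the profile of 100 to 500 UMIs and in δ cells with total UMIs (-0.60). Cadps in α cells fell under 2-fold (0.95) with totals without hormone and mitochondrial genes. No class call reversed its direction in these alternatives. For HFD against CD, the members past 1.5-fold numbered 4 in β cells (main 2) with totals without hormone and mitochondrial genes and 4 after free RNA was subtracted as seen in barcodes of 100 to 500 UMIs, added after seeing the data, and 6 with doublets removed or with the profile of 10 to 100 UMIs. In α cells (main 0) they numbered 1 with size factors of DESeq2, with either kind of totals and with the 10 to 100 profile, and 2 with cells thinned to 1500 UMIs. In δ cells (main 0) they numbered 1 with the 100 to 500 profile, 2 with thinned cells and 1 with no filter, and in PP cells (main 1) 2 with total UMIs, 3 with the 10 to 100 profile and 2 with thinned cells. Thinned cells left 23 members tested in α cells, 21 in δ cells and 12 in PP cells, and no filter left 30 in δ cells. The shares of all genes past 1.5-fold under these alternatives were not computed. Whether the moves are particular to the members therefore cannot be read from these counts. Unthinned shares of cells with a UMI were 3.17% in HFD and 6.67% in CD for Cadps in δ cells, 74.8% and 75.9% for Sytl4 in β cells, and 28.3% and 50.02% for Rab3b in β cells. The cause of the moves in counts was not tested. Depth limits the δ and PP classes, where 26 of 31 members had at least 100 UMIs.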
